A study of Mus musculus with 18 samples.

Results

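High-fat diet (HFD) was compared with chow in pancreatic islets that lack TRAF2 in beta cells. The comparison used 6 of the 18 arrays of the series: 3 of HFD TRAF2 knockouts and 3 of chow TRAF2 knockouts, chosen by their labels alone. The mice carried RIPCre, a Cre recombinase under the rat insulin promoter, and TRAF2loxP/loxP alleles on a C57BL/6 background. All mice of the series were 16 weeks old when islets were taken, males and females were used, and HFD (45% of the energy as fat) was given for 8 weeks, against standard chow. The same contrast in TRAF3 knockouts (RIPCre with floxed TRAF3) and in floxed littermate controls, each with 3 HFD and 3 chow arrays, served for comparison. RIPCre recombines in beta cells and, in published lines, also in some neurons of the brain, whereas the other cells of an islet preparation keep their alleles. Whether a sample came from 1 animal or from a pool is not stated, so p-values measure the spread between samples, which may in part be technical. That spread was estimated over all 18 arrays, so that arrays outside this comparison enter each SE and p-value.

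TRAF2 is an adaptor protein below receptors of the tumour necrosis factor family. Together with TRAF3 and the ubiquitin ligases Birc2 and Birc3 it holds the kinase NIK (Map3k14) at a low level, and loss of the complex lets NIK process Nfkb2 and engage the non-canonical NF-kB pathway. TRAF2 also takes part in canonical NF-kB and JNK signalling. Beyond beta cells, islets hold other endocrine cells, resident macrophages, endothelial cells, pericytes and fibroblasts, and isolated islets carry remnants of exocrine tissue. Resident macrophages of this tissue can take an alternatively activated state, which in mice is driven through STAT6 and marked by Retnla, Mrc1 and Mgl2.

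On HFD, islets of TRAF2 knockouts had higher levels of 9 of 14 genes of alternatively activated macrophages and of 5 of 14 genes of smooth muscle and pericytes. Among the genes lower on HFD were Stc1, Bcl3, Socs3, Plk3 and the nuclear RNA Neat1, while insulin and the other main islet hormones did not pass the test. Of 22180 genes, 435 passed (1.96% of those tested; limma's adjusted p under 0.05), 196 higher on HFD (0.884%) and 239 lower (1.08%). The median log2 fold change was 1.21 over the 196 raised genes and -0.91 over the 239 lowered genes, against 0.01 over all genes. These shares and the median over all genes are the background for every list count below. The lists were chosen with earlier results of these data known, so that their counts describe the lists and are no test of them. More than 4-fold differences were found for 42 raised and 25 lowered genes. The 3 HFD arrays did not overlap the 3 chow arrays for 195 of the 196 raised and for all 239 lowered genes, against 23.9% of all genes. The genes were selected by a test on these same arrays, so that the lack of overlap describes them and is no separate support. Because the values are on a log2 scale and low signals are compressed, fold changes are uncertain in size where the lower group lay below the median of every array (4.80 at the lowest), as for 75 raised and 21 lowered genes.

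The HFD arrays were alike (Pearson's r across genes 0.991 to 0.993) and the chow arrays less so (0.966 to 0.987), and the correlation between diets was 0.968 to 0.981. Chow array 1 stood apart from chow arrays 2 and 3. Its mean log2 level over 20 lymphocyte genes was 6.96, against 5.14 and 4.72 in the other chow arrays. Slc2a2, the glucose transporter of mouse beta cells, read 8.49 there, against 10.84 and 11.16. By Xist and Y-linked genes, HFD array 1 was of male type and HFD arrays 2 and 3 of female type, while chow array 1 was of female type and chow arrays 2 and 3 of male type. The mean level of 28 acinar genes was 11.3, 11.3 and 11.6 on HFD and 10.4, 11.5 and 9.85 on chow. Genes defining the labelled tissue were high on every array: Ins2 read at least 11.25 and Gcg, the glucagon gene, at least 12.89. Traf2 itself read 6.94, 7.15 and 6.90 on HFD and 7.50, 7.23 and 7.22 on chow, a log2 fold change of -0.32 (SE 0.14) that did not pass (limma's adjusted p = 0.325). In controls it averaged 6.82 on HFD and 7.18 on chow, so that the islets labelled as TRAF2 knockouts showed no lower level (7.0 on HFD and 7.32 on chow). The probes of this array type lie along the whole transcript, the labels do not say which exons the floxed allele removes, and other islet cells keep the gene, so that this level checks the deletion in neither direction. Without single arrays the count of 435 genes became 218, 149 and 123 (HFD arrays 1, 2 and 3) and 520, 311 and 127 (chow arrays 1, 2 and 3). All 435 genes kept their direction in each of these fits. That outcome was nearly fixed in advance, since leaving out 1 array cannot turn the sign where the HFD and chow arrays do not overlap.

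The promoters shown were picked because they hold a motif searched for below and belong to genes among the 15 largest rises (Retnla and Cbr2) or falls (Il6 and Bcl3). They are examples of the motifs: F13a1 and Folr2, which rose more than Cbr2, are not shown. Each window runs from 250 bases before to 50 bases after the transcription start (RefSeq, GRCm38.p6), 5′ to 3′ on the gene's strand. Retnla lies at chr16:48842359-48842658 on the plus strand and Cbr2 at chr11:120731972-120732271 on the minus strand. In both, capitals mark the palindromic motif of TTC and GAA with 4 bases between them, to which STAT6 binds, at -145 to -136 in Retnla and at 25 to 34 in Cbr2. Il6 lies at chr5:30012864-30013163 on the plus strand and Bcl3 at chr7:19822706-19823005 on the minus strand. There the capitals mark an NF-kB site, at -44 to -35 in Il6 and, read on the opposite strand, at 3 to 12 in Bcl3.
Retnla: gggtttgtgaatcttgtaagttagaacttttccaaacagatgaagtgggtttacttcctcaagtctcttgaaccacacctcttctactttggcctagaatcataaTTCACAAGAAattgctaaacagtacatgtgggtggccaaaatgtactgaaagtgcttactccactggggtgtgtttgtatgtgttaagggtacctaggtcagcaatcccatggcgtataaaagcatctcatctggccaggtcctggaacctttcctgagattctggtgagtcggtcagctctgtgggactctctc
Cbr2: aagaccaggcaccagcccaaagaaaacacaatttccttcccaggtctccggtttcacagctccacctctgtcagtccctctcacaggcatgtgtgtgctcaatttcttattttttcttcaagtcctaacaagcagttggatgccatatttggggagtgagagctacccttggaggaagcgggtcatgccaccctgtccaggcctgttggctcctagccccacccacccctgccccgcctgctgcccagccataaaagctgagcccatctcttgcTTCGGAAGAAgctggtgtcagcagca
Il6: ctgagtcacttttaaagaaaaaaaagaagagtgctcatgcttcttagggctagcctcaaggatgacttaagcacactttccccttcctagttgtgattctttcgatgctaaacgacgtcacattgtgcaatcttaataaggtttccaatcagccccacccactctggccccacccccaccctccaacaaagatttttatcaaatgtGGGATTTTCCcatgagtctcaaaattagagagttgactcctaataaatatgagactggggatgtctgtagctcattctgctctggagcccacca
Bcl3: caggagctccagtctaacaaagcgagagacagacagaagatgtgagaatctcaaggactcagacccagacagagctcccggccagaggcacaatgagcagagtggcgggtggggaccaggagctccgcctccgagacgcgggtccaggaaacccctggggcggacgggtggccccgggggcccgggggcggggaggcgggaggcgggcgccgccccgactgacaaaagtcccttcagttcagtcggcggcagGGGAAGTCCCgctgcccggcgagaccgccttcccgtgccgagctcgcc

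Genes of alternatively activated macrophages gave the largest rises. Of the 14 measured genes of this list, 9 were higher on HFD (0.884% of all genes tested) and none lower, and the list's median log2 fold change was 2.03, against 0.01 over all genes. Retnla, the secreted resistin-like molecule alpha, read 8.94, 8.85 and 9.27 on HFD and 3.81, 3.73 and 3.14 on chow. The chow readings lie below every array's median, so that the log2 fold change of 5.46 (SE 0.41; limma's adjusted p = 5.52e-06) has an uncertain size. Folr2, the folate receptor beta of resident macrophages, read 10.17, 10.07 and 10.17 on HFD and 7.49, 6.05 and 5.85 on chow. F13a1, the A subunit of coagulation factor XIII, read 9.35, 8.99 and 9.11 on HFD and 6.15, 4.88 and 5.24 on chow. In both genes chow array 1 was the highest chow array and still lay below every HFD array. Cbr2, a carbonyl reductase, was higher by 3.60 (SE 0.25; adjusted p = 5.4e-06), with HFD readings of 8.90, 8.97 and 8.68 and chow readings of 4.87, 5.43 and 5.44. Mrc1, the mannose receptor CD206, averaged 8.73 ± 0.18 on HFD and 5.79 ± 0.90 on chow (SD, n = 3 each). The remaining called members were Cd163, Mgl2, Ccl24 and Clec10a, while Arg1 (0.12) and Chil3 (0.21), which are also used as markers of this state in mice, did not pass. Cd209d, a C-type lectin not in the list, read 7.59, 8.24 and 7.84 on HFD and 3.80, 3.68 and 4.09 on chow. Without single arrays, between 7 (chow array 3) and 10 (chow array 2) of the 14 passed.

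General myeloid genes included further rises. Of 22 measured, 6 passed, all higher, against 0.884% of all genes, and the median was 0.83. These were Lyz1 and Mrc1, with Adgre1 (the surface protein F4/80), Cd163, Csf1r (the receptor for macrophage colony-stimulating factor) and Tyrobp (a signalling adaptor). Mrc1 and Cd163 belong to the list of alternative activation too and were counted there already. Adgre1 read 8.47, 8.41 and 8.29 on HFD and 5.87, 6.07 and 6.40 on chow, a log2 fold change of 2.28 (SE 0.33). Of the 22 genes, 21 had positive differences. Cd14 (-0.85), S100a8 (0.33) and S100a9 (0.04), which monocytes and neutrophils express, were among those that did not pass. Lyz1, a lysozyme, read 9.24, 9.49 and 9.71 on HFD and 7.92, 6.03 and 5.16 on chow. Its call was lost without any single array other than chow array 1, at log2 fold changes of 2.51 to 3.23. Chow array 1 had a mean myeloid level of 7.14, close to the HFD arrays at 7.41 to 7.46 and above the other chow arrays at 5.97 and 5.95. Without it, 10 of the 22 genes passed and the median was 1.33, against 4 genes without any other single array of this comparison. In bulk islets, more cells of a type and more RNA per cell cannot be told apart.

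**Figure D1:**
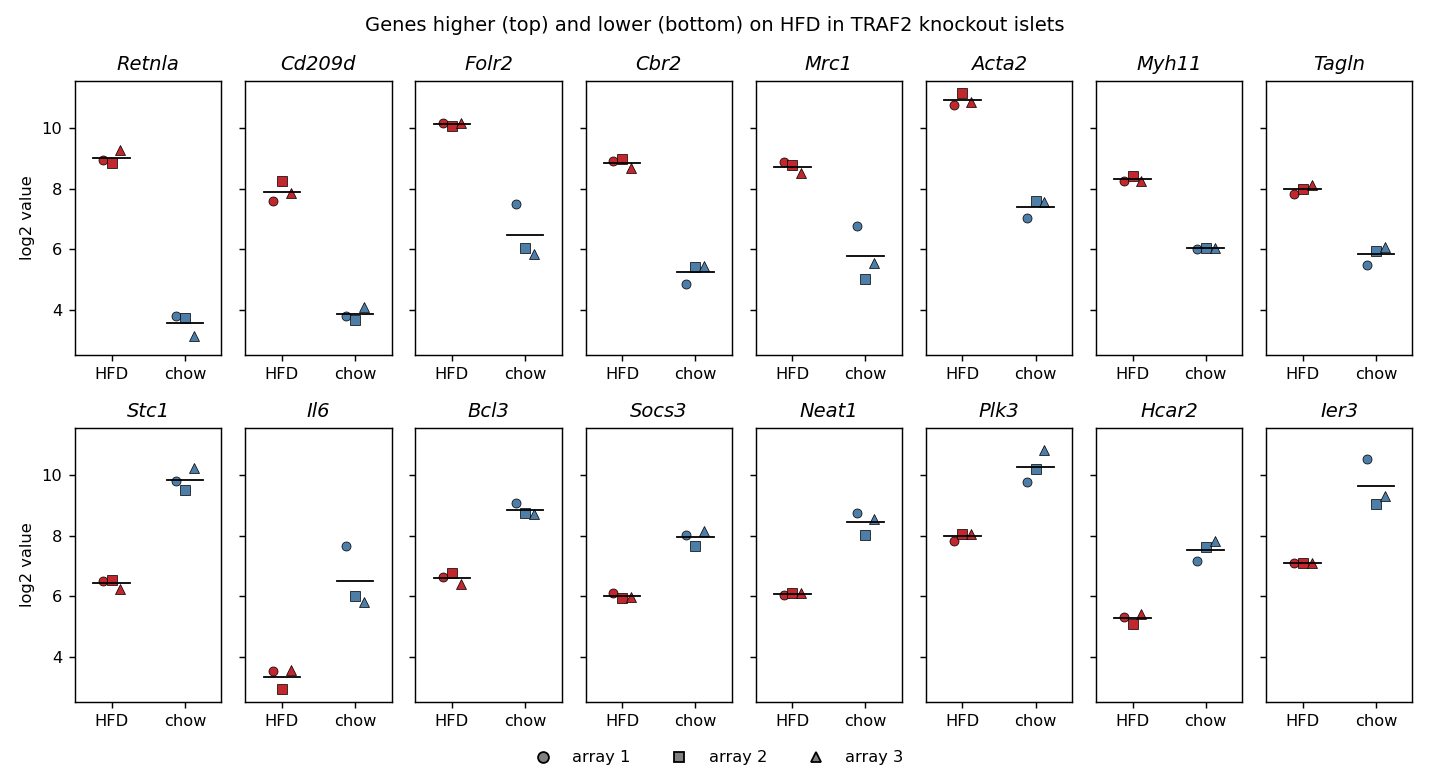
Log2 values (vertical axis) of 8 genes that were higher and 8 that were lower on HFD in TRAF2 knockout islets, with HFD left of chow. Each symbol is 1 array and each bar the mean of 3 arrays. The 16 genes were picked from those called on these arrays, and their groups do not overlap, as in nearly all called genes. Retnla has the widest gap, with HFD readings of 8.85 to 9.27 and chow readings of 3.14 to 3.81.

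Other genes of myeloid and mast cells were among the 15 largest rises. Rgs18, a regulator of G protein signalling found in blood cells, was higher by 2.98 (SE 0.40), Clec12a, an inhibitory lectin of myeloid cells, by 2.81 (SE 0.56), and Adgre4, a relative of Adgre1, by 2.54 (SE 0.48). Cpa3, the carboxypeptidase of mast cell granules, read 6.03, 6.09 and 6.22 on HFD and 3.60, 3.60 and 3.21 on chow. Hpgd, the enzyme that inactivates prostaglandins, read 8.58, 8.72 and 8.73 on HFD and 5.36, 5.83 and 6.17 on chow. Mc5r, a melanocortin receptor that is in none of the cell type lists, was uneven on HFD at 9.22, 6.25 and 7.61, against 4.42, 4.40 and 5.47 on chow. In controls the diet effect of Mc5r was 0.14 and did not pass. The difference between the 2 diet effects of Mc5r (2.79, SE 0.89) did not pass either. Its call in TRAF2 knockouts was lost without any 1 array except HFD array 2, at log2 fold changes of 2.17 to 3.28. That of Clec12a was lost without any 1 array except chow array 1 (2.42 to 2.86), and that of Adgre4 without HFD array 3 or chow array 3 (2.37 to 2.45).

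MHC class II genes, which present antigen on macrophages, dendritic cells and B cells, all had positive differences, 10 of 10, with a median of 0.72, but none passed. H2-Ab1 was higher by 1.04 (SE 0.32; limma's adjusted p = 0.118). Without chow array 1 the median was 1.25. Among 13 complement genes C1qb, a subunit of C1q made by macrophages, passed at 1.37, and C1qc (1.60) and C1qa (0.82) did not. C1qb lost its call without any array other than chow array 1 (1.14 to 1.40), and without chow array 1 there were 4 called complement genes. No lymphocyte gene of 20 passed, and their median was 0.41 (1.06 without chow array 1). The T cell receptor subunit Cd3e read 5.60, 6.83 and 7.09 on HFD and 8.91, 5.39 and 5.06 on chow, so that the highest and the lowest readings were both on chow arrays.

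The other list with several rises was that of smooth muscle and pericytes. Of 14 measured, 5 were higher, against 0.884% of all genes, and none lower, with a median of 0.78. Acta2, the smooth muscle actin, read 10.74, 11.13 and 10.85 on HFD and 7.03, 7.59 and 7.55 on chow, a log2 fold change of 3.52 (SE 0.39; limma's adjusted p = 0.00027). Myh11, the smooth muscle myosin heavy chain, read 8.26, 8.40 and 8.26 on HFD and 6.01, 6.04 and 6.04 on chow. Tagln, an actin-binding protein, averaged 7.97 ± 0.16 on HFD and 5.84 ± 0.30 on chow (SD, n = 3 each). Cnn1 (calponin, 1.67) and Mylk (myosin light chain kinase, 1.21) also passed. The other 9 genes did not pass. They were the muscle genes Des (1.20), Actg2 (0.69) and Lmod1 (0.65), and Notch3 (0.85), Pdgfrb (0.72), Cspg4 (0.58), Rgs5 (0.46), Abcc9 (0.29) and Kcnj8 (-0.46). The list's mean level was 7.38 to 7.46 on HFD and 6.16 to 6.38 on chow, and chow array 1 (6.33) lay between the other chow arrays. Without single arrays, 4 or 5 of the 14 genes passed, and the median was 0.79 to 0.85.

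Myl9, a smooth muscle myosin light chain, and Fbln5, an elastic fibre protein, were chosen after their values were seen. Myl9 read 9.12, 9.19 and 9.38 on HFD and 6.28, 7.53 and 7.51 on chow. Fbln5 read 7.97, 7.92 and 7.94 on HFD and 5.81, 6.04 and 6.11 on chow, a log2 fold change of 1.96 (SE 0.16; limma's adjusted p = 1.88e-05). Both diets were tightly grouped and far apart in Fbln5. Among 21 genes of stellate cells, fibroblasts and collagens only Col14a1, a collagen that binds fibrils, passed (1.36), and it lost its call without HFD array 2 (1.33). The main fibrillar collagens did not pass, with 0.06 for Col1a1 and 0.13 for Col3a1. Ogn, a small proteoglycan of connective tissue outside the list, was higher by 2.89 (SE 0.40). Chow array 1 had the highest fibroblast level (7.10), above the HFD arrays at 6.82 to 6.95 and the other chow arrays at 5.90 and 5.86. Without it, 2 of the 21 passed and the median was 0.63, against 0.30 with it. Of 16 endothelial genes Cldn5, a tight junction claudin, passed at 1.51 (SE 0.23). The scavenger receptor Cd36, which takes up fatty acids and is made by macrophages and endothelium as well, was the one of 25 lipid droplet and fatty acid oxidation genes to pass, at 2.12 (SE 0.37). Cd36 lost its call without chow array 3 (1.74).

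**Figure D2:**
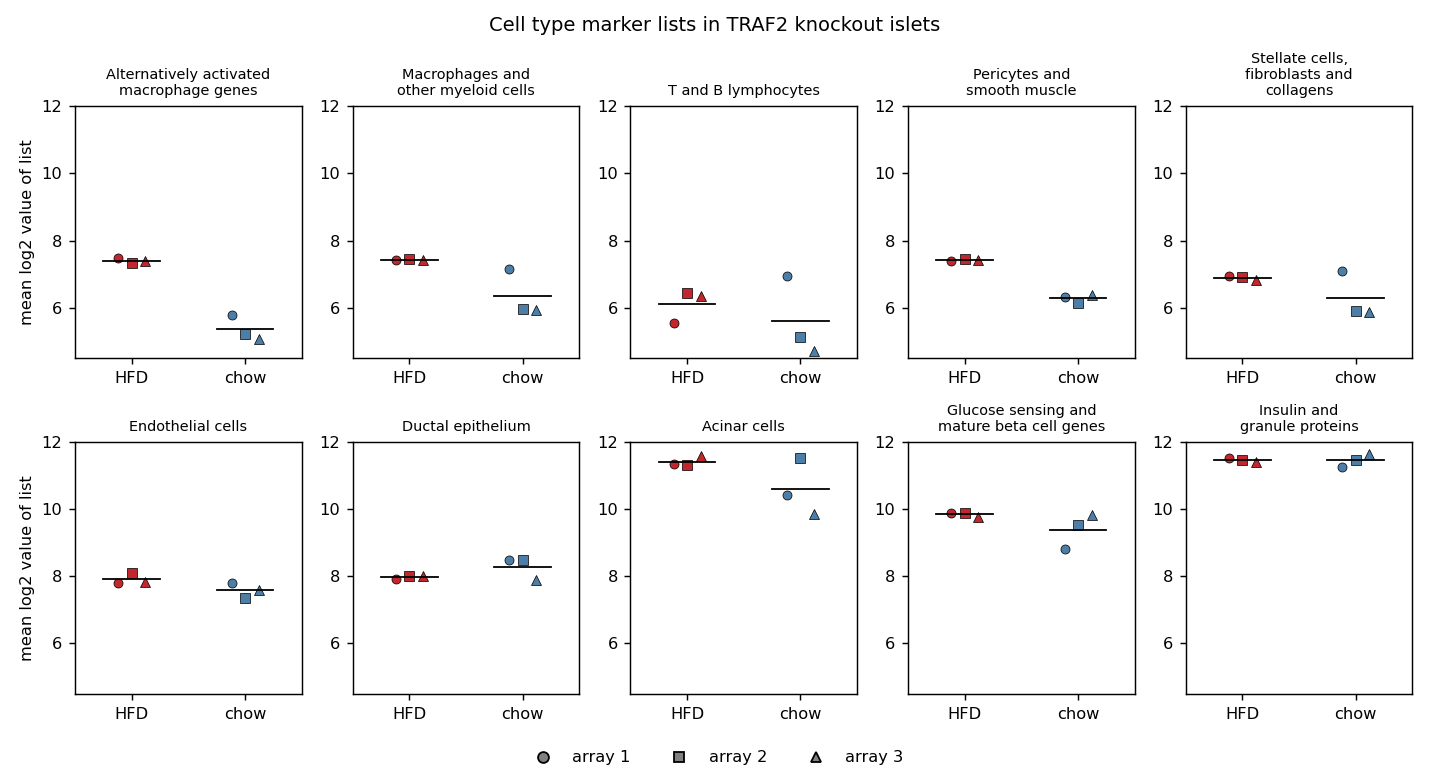
Mean log2 value of 10 marker lists (vertical axis) in each TRAF2 knockout array, HFD left of chow, with the mean of 3 arrays as a bar. The alternatively activated macrophage and the smooth muscle lists are higher in every HFD array than in any chow array, while in the myeloid, lymphocyte and fibroblast lists chow array 1 lies near or above the HFD arrays.

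Of the lowered genes Stc1, which encodes the secreted glycoprotein stanniocalcin, had the largest fall. It read 6.52, 6.53 and 6.24 on HFD and 9.80, 9.50 and 10.22 on chow, a log2 fold change of -3.41 (SE 0.48; limma's adjusted p = 0.00196). Il6, the inflammatory cytokine interleukin-6, read 3.55, 2.94 and 3.56 on HFD and 7.65, 6.01 and 5.83 on chow. Its HFD readings lie below every array's median, and its call was lost without any single HFD array or without chow array 1, at log2 fold changes of -3.25 to -2.57. Ier3, a stress-induced regulator of survival, read 7.09, 7.09 and 7.10 on HFD and 10.54, 9.06 and 9.30 on chow. Plk3, a polo-like kinase of the stress response, read 7.83, 8.07 and 8.07 on HFD and 9.77, 10.20 and 10.81 on chow. Hcar2, the receptor for niacin and beta-hydroxybutyrate, averaged 5.28 ± 0.16 on HFD and 7.54 ± 0.34 on chow (SD, n = 3 each). Each of these genes was lower in every HFD array than in any chow array, as were all 239 lowered genes.

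Further large falls were seen in Bnip5 (-2.73), Tubb6, a beta-tubulin (-2.29), and Rgs4, a regulator of G protein signalling (-2.23), which held their calls without any single array. Pvr, an adhesion receptor of the nectin family, fell by 2.96 on the log2 scale but lost its call in all 6 fits that left 1 array out (-3.05 to -2.86). Its SD was 0.16 on HFD and 0.19 on chow, whereas its SE of 0.66 drew on the spread of the other groups too. The call of Pvr held when only the arrays compared were fitted. Fgb, the beta chain of fibrinogen, fell by 2.70 and lost its call without any array other than chow array 2 (-2.97 to -1.97). Mfsd2a, a transporter of lysophospholipids, fell by 2.34 and lost its call without HFD array 1 or 3 or chow array 2 or 3 (-2.30 to -2.0). Fosl2, an AP-1 subunit, fell by 2.21 and lost it without any HFD array or without chow array 3 (-2.25 to -1.99).

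Most subunits and inhibitors of the canonical NF-kB pathway had negative differences. Of 14 measured, 2 passed, both lower, against 1.08% of all genes. In this list 11 had negative differences and the median was -0.58. Bcl3, a nuclear IkB protein that works with p50 and p52, read 6.63, 6.76 and 6.39 on HFD and 9.08, 8.76 and 8.73 on chow, a log2 fold change of -2.26 (SE 0.34; limma's adjusted p = 0.00267). Tnip1, a partner of A20, fell by 0.64 and lost its call without any HFD array or without chow array 1 or 3 (-0.66 to -0.55). The subunits Rel (-1.15) and Rela (-0.88) and the feedback inhibitors Nfkbiz (-1.09), Tnfaip3 (-0.89) and Nfkbia (-0.72) did not pass.

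Of 13 genes of the non-canonical arm, Birc3 passed as lower (-0.90, SE 0.19) and Tnfsf13b, the ligand BAFF, as higher (0.73, SE 0.15). Birc3 read 6.78, 6.77 and 6.89 on HFD and 8.09, 7.65 and 7.38 on chow. The pathway's precursor Nfkb2 (-0.98), its partner Relb (-0.49), the kinase Map3k14 (-0.40) and the receptor Tnfrsf12a (-2.30) did not pass. Birc3 lost its call without any array but chow array 3 (-0.94 to -0.71), and Tnfsf13b without HFD array 1 or 2 or chow array 2 or 3 (0.62 to 0.76).

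Il6 was the one of 30 chemokine, cytokine and adhesion genes to pass, and Ccl2 (-1.28), Il1b (-1.17) and Cxcl10 (-0.98) did not. Among 16 STAT3 and acute phase genes, 2 passed, both lower, against 1.08% of all genes. Socs3, the feedback inhibitor of this pathway, read 6.11, 5.95 and 5.98 on HFD and 8.03, 7.66 and 8.17 on chow, a log2 fold change of -1.94 (SE 0.29; limma's adjusted p = 0.00237). The other probe set of Socs3, of lower signal, differed by -0.95 and did not pass. Stat3 read 10.44, 10.55 and 10.42 on HFD and 11.48, 11.50 and 11.54 on chow. Stat3 lost its call without HFD array 3 or chow array 3 (-1.03 to -1.02). Serpina3n differed by -2.56 and did not pass.

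The NF-kB motif was present in the promoter windows of 26 of 181 lowered genes with a window (14.4%) and of 5 of 149 raised genes (3.36%), against 7.34% of the windows of all 16990 genes that had one. It was found in 8 of the 12 windows of the canonical NF-kB list, many of which encode feedback targets of that pathway, and in 3 of the 10 windows of the smooth muscle list (30.0%), whose called genes rose. The STAT6 motif was present in 2 of 10 windows of the alternatively activated macrophage list, which are those of Retnla and Cbr2 shown above, and in 7.43% of all windows. It was as frequent in the smooth muscle list (2 of 10 windows) and was in 2 of 12 windows of the canonical NF-kB list, so that its presence was not particular to the macrophage genes. The CArG box, the motif bound by serum response factor in smooth muscle genes, was searched for as CCWWWWWWGG, with A or T at each W. It was in 0 of 10 windows of the smooth muscle list and in 1.67% of all windows. Only 10 of that list's 14 genes had a window, and sites that depart from this pattern or lie outside the windows were not counted. The AP-1 motif TGANTCA was in 12.2% of the lowered genes' windows, in 9.40% of the raised genes' windows and in 8.42% of all windows. Both strands were searched, motifs could overlap, and a match describes letters in these windows and not binding.

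Immediate early genes, which respond within minutes to stimulation or stress, mostly had negative differences. Of 21 measured, 5 passed and were lower, against 1.08% of all genes. In this list 20 had negative differences and the median was -0.87, against a median of 0.01 over all genes. Besides Ier3, these were the AP-1 subunits Jun and Junb, Maff, a small Maf protein, and Btg2, an antiproliferative protein. Jun read 9.40, 8.85 and 9.37 on HFD and 10.03, 10.91 and 11.24 on chow. Jun lost its call without HFD array 2 or 3 or chow array 2 or 3 (-1.60 to -1.26), Junb in all 6 such fits (-1.35 to -1.05) and Maff without any but chow array 1 (-1.34 to -0.93). Fosb, another AP-1 subunit, did not pass: it read 6.43, 6.28 and 7.02 on HFD and 6.15, 10.23 and 11.44 on chow. Chow array 1 thus had the lowest reading of Fosb. Without that array 7 of the 21 genes passed and the median was -1.18, whereas without chow array 3 only 1 passed, without HFD array 2 or 3 also 1, and without chow array 2 or HFD array 1 there were 2.

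Genes of the integrated stress response, the programme that follows phosphorylation of eIF2 alpha, included further falls. Of 20 measured, 4 passed, all lower, against 1.08% of all genes, and the median was -0.70. Atf4, its central transcription factor, read 7.85, 7.53 and 7.51 on HFD and 8.41, 8.56 and 8.57 on chow. Ddit4, an inhibitor of mTORC1, averaged 7.70 ± 0.21 on HFD and 9.64 ± 0.32 on chow (SD, n = 3 each). Ppp1r15a, which takes part in the dephosphorylation of eIF2 alpha, fell by 1.37 (SE 0.29), and Vldlr, a lipoprotein receptor, by 0.86 (SE 0.20). Slc7a11 (-2.55), Ddit3 (-1.59) and Trib3 (-1.50) did not pass. Without single arrays, the number of called genes was 3 (chow array 1), 1 (chow array 2 or HFD array 1) or 0 (the other arrays). Chaperones of the endoplasmic reticulum showed a median of -0.09, and none of 24 passed. Hspa5, the main one, differed by -0.44 (SE 0.16; limma's adjusted p = 0.208). Of 17 heat shock genes Bag3, a cochaperone, passed, with 8.24, 8.18 and 8.08 on HFD and 9.17 on each of the chow arrays.

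**Figure D3:**
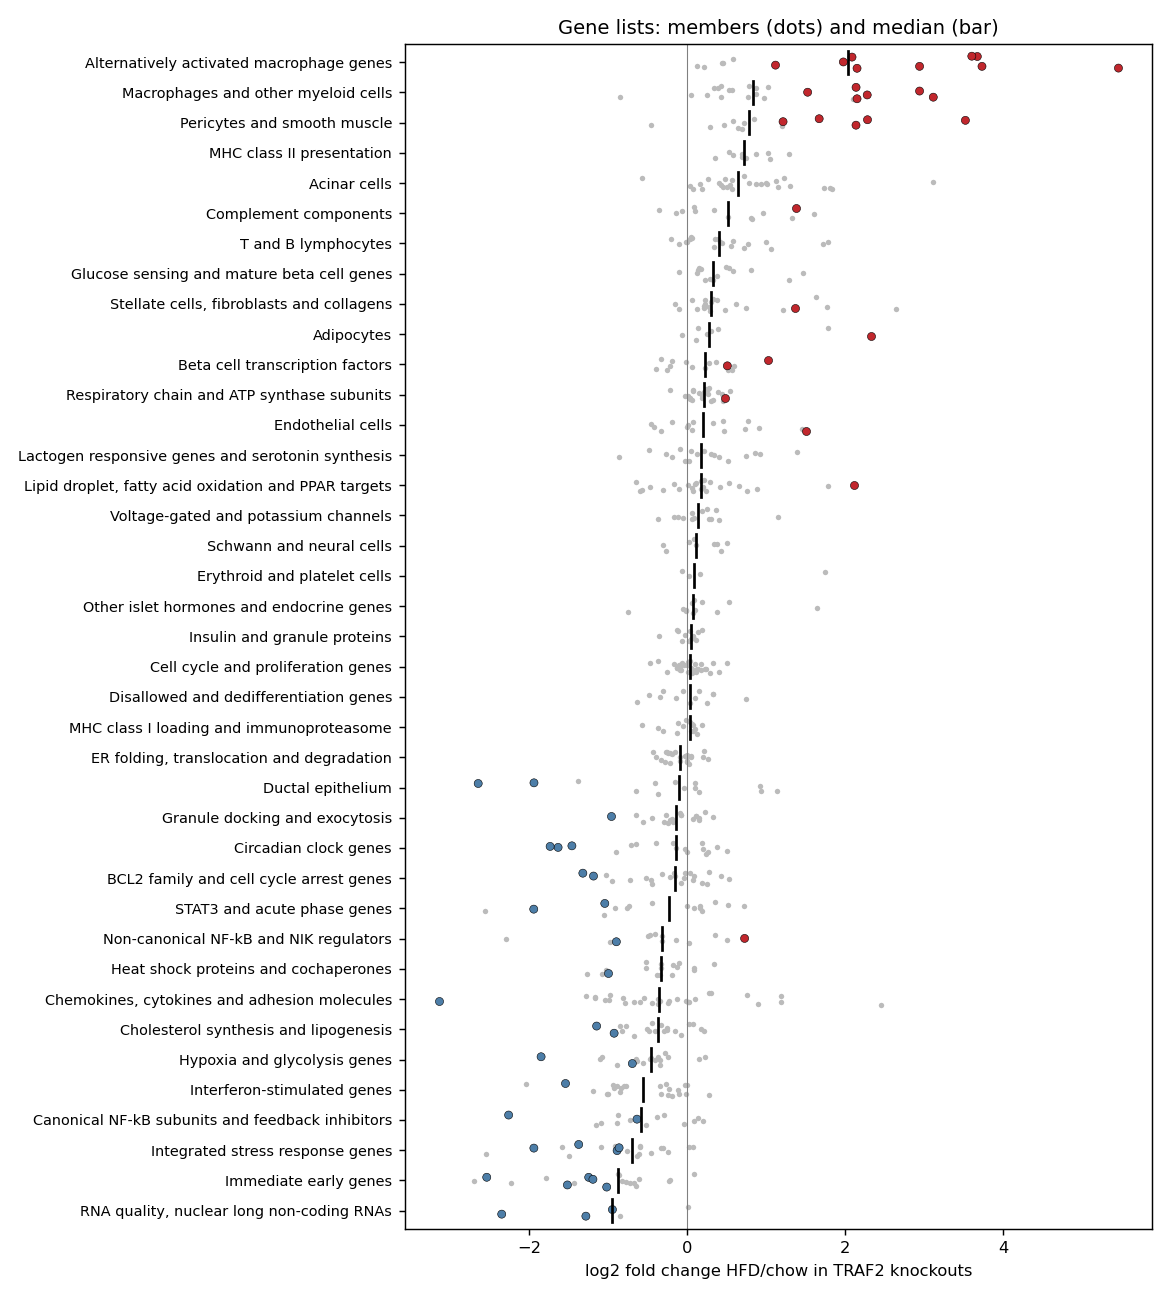
Log2 fold change, HFD over chow, in TRAF2 knockouts (horizontal axis) of every measured gene of 39 lists, ordered by list median (black bar). Coloured dots are genes that passed limma's test, red higher and blue lower; called genes sit to the right in the macrophage and smooth muscle lists and to the left in the immediate early, stress response and nuclear RNA lists.

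Genes linked to the clock, to glucose use and to sterol synthesis included a few lower members each. Of 17 clock genes, 3 were lower, against 1.08% of all genes: the repressors Bhlhe40 (-1.73) and Nfil3 (-1.63) and the activator Npas2 (-1.46). The core factors did not pass, with -0.01 for Clock, -0.15 for Arntl, -0.72 for Per1 and 0.50 for Dbp. Of 18 hypoxia and glycolysis genes, 2 were lower, against the same 1.08%. Slc2a1, the glucose transporter GLUT1, read 9.22, 9.28 and 9.20 on HFD and 11.46, 10.87 and 10.92 on chow, but its other probe set, of lower signal, differed by -0.26 and did not pass. Tpi1, a glycolytic enzyme, fell by 0.69 (SE 0.13). Of 20 sterol and fatty acid synthesis genes, Elovl6, which elongates fatty acids, fell by 1.15 and Fdft1, squalene synthase, by 0.93, and 16 had negative differences (median -0.37). In fits that left 1 array out, Nfil3 lost its call without chow array 3 (-1.39), Bhlhe40 without any HFD array or chow array 3 (-1.76 to -1.68), and Npas2 in all 6 (-1.58 to -1.25). Likewise Tpi1 lost it without HFD array 2 or 3 (-0.72 to -0.65), Slc2a1 without any but chow array 2 (-1.93 to -1.66), Elovl6 without HFD array 3 or chow array 3 (-1.14 to -1.02), and Fdft1 without any but chow array 1 (-0.99 to -0.79).

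Of 5 nuclear long non-coding RNAs, 3 were lower on HFD, against 1.08% of all genes. Neat1, the scaffold of paraspeckles, read 6.06, 6.12 and 6.10 on HFD and 8.76, 8.03 and 8.54 on chow, a log2 fold change of -2.35 (SE 0.23; limma's adjusted p = 6.44e-05). Malat1, a nuclear speckle RNA, read 9.84, 9.75 and 9.70 on HFD and 11.19, 10.75 and 11.19 on chow, and a separate probe set for it differed by -1.29. Malat1 lost its call without HFD array 2 or 3 or chow array 3 (-1.27 to -1.21). Snhg11 passed at -0.95, but its other probe set differed by 0.27, and its call was lost in all 6 fits that left 1 array out (-1.04 to -0.81). Meg3, an RNA of an imprinted locus, differed by 0.01. These RNAs were listed because nuclear transcripts can move with RNA quality, and their mean level was 6.06 to 6.13 on HFD and 6.90 to 7.42 on chow. The part of RNA quality in the results was not tested.

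Of 472 probe sets named for microRNA genes, 7 passed, all lower (1.48%). This share is near that of all genes (1.08%), and the median over the 472 was -0.04, so that the 7 are given as single genes and not as a result about microRNAs. They were chosen after their values were seen. On an array of labelled total RNA these probe sets cannot tell the hairpin or its host transcript from the mature microRNA. RefSeq (GRCm38.p6) held a mature sequence for 6 of the 7, and capitals mark the seed, bases 2 to 8. The microRNAs miR-200b-3p and miR-200c-3p, which hold epithelial identity, share the seed AAUACUG, although their genes lie on different chromosomes (chr4:156055685-156055706 and chr6:124718324-124718346, both minus strand). The next 3 lie on the plus strand of chromosome 12, at chr12:109724363-109724384 (miR-300-3p), chr12:109740553-109740574 (miR-377-3p) and chr12:109733781-109733802 (miR-382-5p), in the imprinted cluster downstream of Meg3, and have different seeds. The gene Mir7-2 (chr7:78888295-78888317, plus strand) gives miR-7a-5p, an abundant islet microRNA.
miR-200b-3p: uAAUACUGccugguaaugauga
miR-200c-3p: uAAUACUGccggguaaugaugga
miR-300-3p: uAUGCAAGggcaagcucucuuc
miR-377-3p: aUCACACAaaggcaacuuuugu
miR-382-5p: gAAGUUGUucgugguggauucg
miR-7a-5p: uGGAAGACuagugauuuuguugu

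Mir200b read 3.83, 3.69 and 3.96 on HFD and 5.79, 5.45 and 6.28 on chow, a log2 fold change of -2.01 (SE 0.24; limma's adjusted p = 0.000491). Mir200c, at its own locus, fell by 0.94. Of the cluster on chromosome 12, Mir300 read 1.89, 2.13 and 2.21 on HFD and 3.81, 4.39 and 6.07 on chow. Mir377 (-2.38) and Mir382 (-2.02) were highest on chow array 3 as well. Mir7-2 differed by -1.46 and Mir1949 by -1.58. All but Mir382 had HFD means below every array's median, so that their fold changes have an uncertain size. Mir200b and Mir300 held their calls without any single array, although Mir300 lost its call when only the arrays compared were fitted (-2.68), whereas the other 5 lost theirs without 3 to 5 of the arrays: Mir382 without HFD array 2 or 3 or chow array 3 (-2.03 to -1.57), Mir377 and Mir200c without any but chow array 1 (-2.49 to -1.84 and -1.09 to -0.75), Mir7-2 without any but chow array 2 (-1.61 to -1.26), and Mir1949 without HFD array 1 or 2 or chow array 1 or 3 (-1.56 to -1.21).

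Few beta cell genes passed. Of 15 transcription factor genes, Mnx1 (7.43, 7.53 and 7.36 on HFD and 6.11, 6.50 and 6.62 on chow) and Foxa2 (8.51, 8.69 and 8.64 on HFD and 8.07, 8.13 and 8.12 on chow) were higher. Both lost their calls in each of the 6 fits that left 1 array out, at log2 fold changes of 0.88 to 1.13 for Mnx1 and 0.47 to 0.56 for Foxa2. Pdx1 (0.52), Nkx6-1 (0.57) and Mafa (0.27) did not pass. None of 14 insulin and granule genes passed, and Ins2 differed by 0.19 (SE 0.17; limma's adjusted p = 0.694). None of 12 other hormone and endocrine genes did either, with -0.01 for Gcg and 0.06 for Sst, the somatostatin gene. Of 15 genes of glucose sensing and mature beta cells, none passed and 14 had positive differences. Slc2a2 read 11.52, 11.42 and 11.41 on HFD and 8.49, 10.84 and 11.16 on chow, so that its difference of 1.28 falls to 0.45 without chow array 1, and the list's median of 0.32 to 0.11. Tph1, the serotonin synthesis enzyme that lactogens induce in beta cells, read 11.37, 10.75 and 10.84 on HFD and 7.87, 10.16 and 10.75 on chow.

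Of the remaining lists, several held 1 or 2 called genes. Among 14 ductal genes, Cldn4, a claudin, read 8.83, 9.13 and 8.98 on HFD and 11.73, 11.97 and 11.17 on chow, and Krt8, a keratin, fell by 1.94, while Krt19 (-0.65) and Epcam (-0.41) did not pass. Of 23 BCL2 family and arrest genes, Cdkn1a, the cell cycle inhibitor p21, fell by 1.32 and Gadd45b, a stress-induced gene, by 1.19. Of 23 respiratory chain and ATP synthase genes, 21 had positive differences (median 0.22), and Ndufa4 passed at 0.48. Stx3, a syntaxin, fell by 0.96 as the one of 20 exocytosis genes. Car3, a carbonic anhydrase of fat cells, was higher by 2.32, but its other probe set differed by 0.62, and Adipoq differed by 0.30. Of 24 interferon-stimulated genes, Rsad2 (viperin) passed, with 7.06, 7.11 and 7.09 on HFD and 8.71, 8.54 and 8.64 on chow; 23 had negative differences, with a median of -0.56 that was -0.04 without chow array 1. Cldn4 and Rsad2 held their calls without any single array. Krt8 and Cdkn1a lost theirs in all 6 such fits (-1.99 to -1.84 and -1.43 to -1.26), Gadd45b and Car3 without HFD array 2 or chow array 3 (-1.03 to -1.01 and 2.15 to 2.21), and Stx3 and Ndufa4 without any but chow array 1 (-1.03 to -0.84 and 0.45 to 0.50).

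None passed among 36 cell cycle genes (Mki67 -0.47), 15 MHC class I genes (B2m 0.07), 13 genes that beta cells normally silence or gain on dedifferentiation (Ldha -0.35), 18 lactogen-responsive and serotonin genes, 14 channel genes (Kcnn3 1.15), 28 acinar genes, 9 Schwann and neural genes (S100b 0.09) and 4 erythroid and platelet genes (Slc4a1 -0.06). Of the acinar genes 27 had positive differences (median 0.65). Serpini2 differed by 3.10, with 11.62, 11.55 and 12.20 on HFD and 5.86, 11.80 and 8.39 on chow. The acinar level moved with the diet in part, since 2 of the 3 chow arrays lay below all HFD arrays. With an acinar score as a covariate, 1175 genes passed in place of 435, and 404 of the 435 were among them.

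The same contrast in floxed controls, which shares no array with the TRAF2 knockouts, ran in the same direction for nearly all of these genes. HFD changed 196 genes in controls (0.884%), 116 higher (0.523%) and 80 lower (0.361%). Of the 196 genes raised in TRAF2 knockouts, 193 had a positive difference in controls (98.5%, against 50.9% of all genes), and 76 passed there too, which is 38.8% of the TRAF2 knockout list and 65.5% of the control list. Of the 239 lowered genes, 233 had a negative difference in controls (97.5%, against 49.1% of all genes), and 39 passed, 16.3% of the TRAF2 knockout list and 48.8% of the control list. No called gene of the TRAF2 knockouts was called in the opposite direction in controls. Retnla read 9.49, 8.62 and 7.57 in HFD controls and 4.73, 3.86 and 4.01 in chow controls. Acta2 read 11.29, 11.10 and 10.48 in HFD controls and 9.70, 8.55 and 7.68 in chow controls. Neat1 read 6.24, 5.95 and 6.23 in HFD controls and 8.03, 7.58 and 8.08 in chow controls. Other large falls were less even in controls. Stc1 read 6.20, 6.17 and 5.24 in HFD controls and 6.39, 8.98 and 8.74 in chow controls. Cldn4 read 9.72, 9.78 and 9.49 in HFD controls and 9.67, 12.03 and 12.03 in chow controls. In Pvr, Il6, Ier3 and Tubb6 chow control 1 lay below every HFD control, and chow controls 2 and 3 lay above them. The HFD controls were all of female type and the chow controls 1 of female and 2 of male type, and the count in controls fell to 48 with a sex score as a covariate, against 391 for the 435 of the TRAF2 knockouts. Leaving out single control arrays gave 19 (chow control 2) to 603 (chow control 1) called genes, with 40 without HFD control 2, 55 without chow control 3, 89 without HFD control 3 and 115 without HFD control 1.

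The diet effect of TRAF2 knockouts minus that of controls passed for 0 of 22180 genes in limma (0%), with 628 genes at an unadjusted p under 0.05. It stayed at 0 in every alternative run. The median over the raised genes was 1.21 in TRAF2 knockouts and 0.82 in controls, and over the lowered genes -0.91 and -0.59, but the genes were selected on the knockouts, so that these medians are no test of a difference. The genes of smallest unadjusted p in each direction are named without having passed. Gbp4, an interferon-induced GTPase, averaged 4.31 ± 0.19 in HFD and 6.12 ± 0.28 in chow TRAF2 knockouts (SD, n = 3 each), against 3.81 in HFD and 3.83 in chow controls. The difference of its diet effects was -1.78 (SE 0.37; limma's adjusted p = 1 across all genes). Others with a lower diet effect in knockouts were Slc16a3, a lactate transporter (-1.65), Cebpd, a transcription factor of the acute phase (-1.42), Clmp, an adhesion molecule (-0.71), and Col13a1, a membrane collagen (-0.57). Those with a higher one were Gpr141b (1.23), Gp5, a platelet glycoprotein (0.92), Nuak1, an AMPK-related kinase (0.90), Sycp1, a meiotic protein (0.84), and Aipl1, a photoreceptor cochaperone (0.58). Of the pairs of diet effects behind these, Gpr141b was higher in both genotypes, at 2.29 in TRAF2 knockouts and 1.06 in controls.

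**Figure D4:**
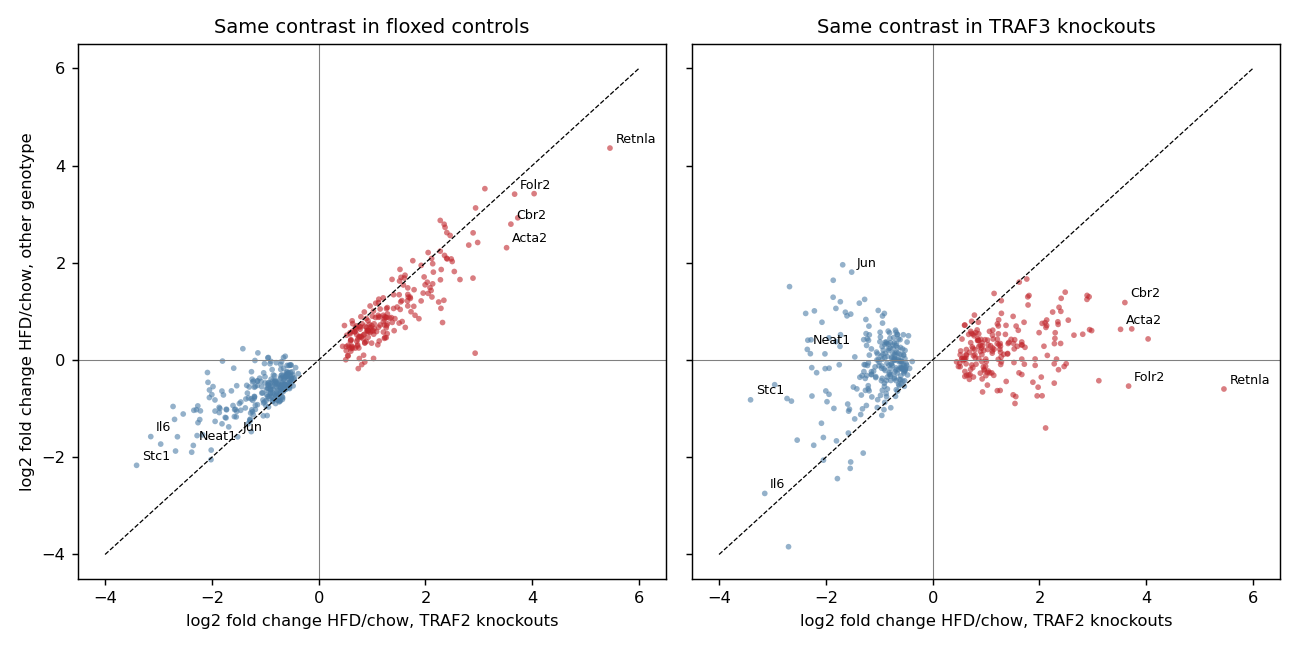
Log2 fold change, HFD over chow, of the 435 called genes in TRAF2 knockouts (horizontal axis) against the same contrast in floxed controls (left panel) and in TRAF3 knockouts (right panel); red genes were raised, blue genes lowered, and the dashed line marks equal values. In controls 193 of 196 raised and 233 of 239 lowered genes have the same sign, in TRAF3 knockouts 136 and 138; the genes were selected on the horizontal axis.

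In TRAF3 knockouts HFD changed 1923 genes (8.67%), 590 higher (2.66%) and 1333 lower (6.01%). Of the genes raised in TRAF2 knockouts, 136 of 196 had the same sign in TRAF3 knockouts (69.4%, against 53.2% of all genes), 21 were called the same way and 3 the opposite way. Of the lowered genes, 138 of 239 had the same sign (57.7%, against 46.8%), 38 were called the same way and 25 the opposite way. The test of the difference between the diet effects, TRAF2 minus TRAF3 knockouts, passed for 606 genes (2.73%), 348 of them positive (1.57%) and 258 negative (1.16%). These held 61 of the 196 raised and 87 of the 239 lowered genes, all with the sign of the TRAF2 knockouts' effect. The genes were selected on the same TRAF2 knockout arrays that enter this difference, so that the shared sign was nearly fixed in advance and is no test. Without single arrays the 606 ranged from 140 (chow TRAF2 knockout 3) to 1582 (chow TRAF2 knockout 1). It was 169 to 269 without HFD TRAF2 knockout 1, 2 or 3, chow TRAF2 knockout 2, HFD TRAF3 knockout 2 or chow TRAF3 knockout 1 or 3, 399 and 464 without chow TRAF3 knockout 2 and HFD TRAF3 knockout 1, and 772 without HFD TRAF3 knockout 3.

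Called macrophage genes were on one side of that difference. Of the 14 genes of alternative activation, 8 had a larger diet effect in TRAF2 than in TRAF3 knockouts, against 1.57% of all genes. The list's median was 2.03 in TRAF2 knockouts, 0.08 in TRAF3 knockouts and 1.60 in controls. Of the 22 general myeloid genes, 4 had a called difference, all positive. The TRAF2 knockout arrays in which the macrophage genes rose enter this difference, so that these counts are no separate support. Retnla read 3.49, 4.89 and 3.94 in HFD and 4.52, 4.72 and 4.86 in chow TRAF3 knockouts, and its difference of diet effects was 6.05 (SE 0.57; limma's adjusted p = 0.000174). Folr2 (4.21), Cd209d (3.60) and Cd36 (3.51) followed, with Pf4, a platelet and macrophage chemokine (4.09), which did not pass within TRAF2 knockouts (1.74; adjusted p = 0.142) and fell in TRAF3 knockouts (-2.35). Acta2 (2.89), Myh11 (1.94) and Fbln5 (2.69) passed as well. The MHC class II genes had no called difference between the knockouts.

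Immediate early genes were on the other side. Of 21, 14 had a lower diet effect in TRAF2 than in TRAF3 knockouts, against 1.16% of all genes. The list's median was -0.87 in TRAF2 knockouts, 1.25 in TRAF3 knockouts and -0.72 in controls. The largest differences were in Fosb (-7.70, SE 1.40; limma's adjusted p = 0.012), Npas4, a transcription factor induced by calcium entry (-6.59), Atf3, a stress-induced factor (-5.08), and Nr4a1, an orphan receptor (-4.38). Fosb read 12.64, 12.65 and 9.68 in HFD and 6.60, 6.94 and 6.40 in chow TRAF3 knockouts. The TRAF3 knockouts thus had their highest levels on HFD, and chow TRAF2 knockouts 2 and 3 had them on chow. Jun differed by -3.32 and passed within each knockout, lower on HFD in TRAF2 knockouts (-1.52) and higher in TRAF3 knockouts (1.81). Rsph4a, a protein of motile cilia, differed by -3.81. Interferon-stimulated genes showed 13 of 24 called differences, all positive, against 1.57% of all genes. Their list medians were -0.56 in TRAF2 and -2.40 in TRAF3 knockouts. They were lower on HFD in TRAF3 knockouts, where 23 of the 24 passed, against 6.01% of all genes. Neat1 read 8.17, 7.35 and 8.03 in HFD and 7.70, 7.28 and 7.91 in chow TRAF3 knockouts, and its difference of diet effects was -2.57 (SE 0.32).

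**Figure D5:**
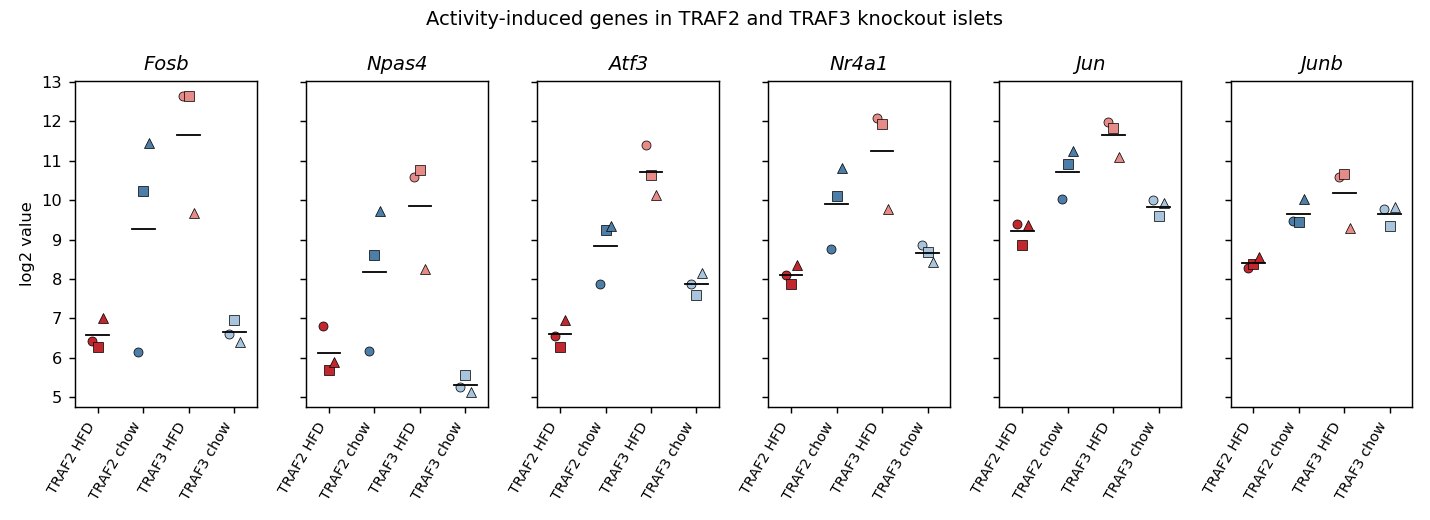
Log2 values (vertical axis) of 6 activity-induced genes in TRAF2 knockouts and in TRAF3 knockouts, with HFD left of chow within each genotype; symbols are arrays 1 to 3 and bars are means. In TRAF2 knockouts HFD means are below chow means in all 6 genes, with chow array 1 as the lowest chow array except in Junb, and in TRAF3 knockouts HFD means are above chow means.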

How the data were processed

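Per the labels' protocols, total RNA of isolated islets was extracted with a Qiagen RNeasy kit, and 250 ng was labelled with biotin (Ambion WT kit) for single-colour Affymetrix arrays. The deposited table holds log2 values of each probe set. Per the submitters' processing notes these came from RMA, and limma was used. Versions and genome build are not given in the sources used here. Of 41345 probe sets, 23521 had exactly 1 gene symbol in the platform annotation, 1814 had several and 16010 none. Where several probe sets stood for a gene (1082 genes), that with the greatest average over the 18 arrays was kept, leaving 22180 genes. For arrays the number of samples limits the precision.

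Group means of all 6 groups were fitted together with limma 3.58.1 (lmFit, eBayes) in R 4.3.3, which gave 12 residual degrees of freedom. Tests were two-sided, with Benjamini-Hochberg adjustment per contrast across the 22180 genes. SE is limma's moderated one, and SD is over 3 arrays. The fit was tested on simulated data. Replicate numbers are shared between groups, but same-numbered arrays did not deviate together (correlations -0.16, -0.04 and -0.23), so that arrays were treated as unpaired.

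Members and the 40 lists (679 of 755 genes measured) were chosen with earlier results of these data known. Named were Traf2, the 15 largest rises and falls, the top 5 per direction of both differences of diet effects (by smallest p where none passed), and up to 4 called members per list, or its first 2 and the one of smallest p. Placeholder and small RNA symbols were left out of this rule. Further list members, named with their values to show who did or did not pass, were chosen after their values were seen, as were Myl9, Fbln5 and the microRNA genes. The Traf3 transcript is not reported here. Alternatives were recentring, a second quantile normalization, trend and robust eBayes, leaving out dim genes, every probe set, only the arrays compared, a replicate block, a sex or acinar covariate, and leaving out each array. Promoter windows and microRNA sequences are RefSeq's (GRCm38.p6), matched by symbol.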

Additional observations from a re-analysis of the deposited data

Results flagged for a closer look

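The diet effect differed between TRAF2 and TRAF3 knockouts for 606 genes by limma's test of the difference itself, and the genes below are those of them that fall under the naming rule or its exceptions. Ghrl, the ghrelin gene, and Syvn1, a ligase of protein degradation in the endoplasmic reticulum, are named here only. Values are the diet effect in TRAF2 knockouts minus that in TRAF3 knockouts on the log2 scale.

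A larger diet effect in TRAF2 knockouts was found for Retnla (6.05), Folr2 (4.21), Pf4 (4.09), Cd209d (3.60), Cd36 (3.51), F13a1 (3.09), Acta2 (2.89), Fbln5 (2.69), Cbr2 (2.42), Rgs18 (2.37), Adgre1 (2.35), Cldn5 (2.22), Cpa3 (2.14), Cd163 (2.05), Myh11 (1.94), Gpr141b (1.85), Hpgd (1.56) and Ndufa4 (0.62).

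A lower diet effect in TRAF2 knockouts, with a positive estimate in TRAF3 knockouts, was found for Fosb (-7.70), Npas4 (-6.59), Atf3 (-5.08), Nr4a1 (-4.38), Mir300 (-4.19), Rsph4a (-3.81), Mir377 (-3.34), Jun (-3.32), Fosl2 (-3.23), Mfsd2a (-2.74), Plk3 (-2.69), Nfil3 (-2.62), Neat1 (-2.57), Ppp1r15a (-2.54), Tubb6 (-2.42), Socs3 (-2.40), Mir382 (-2.14), Bhlhe40 (-2.02), Maff (-1.89), Junb (-1.79), Gadd45b (-1.70), Ghrl (-1.58), Elovl6 (-1.37), Fdft1 (-1.13), Syvn1 (-1.11), Atf4 (-1.02) and Hspa5 (-0.92). The estimate was negative in TRAF3 knockouts as well for Hcar2 (-2.11), Bag3 (-0.96) and Mir200b (-1.83). Chow TRAF2 knockout 1 had lower readings of Fosb and Npas4 than the other chow arrays of that genotype, and without it the count of 606 was 1582. The count was 651 with a sex score and 877 with an acinar score as a covariate.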

How the results depend on the processing

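All 435 genes kept their direction under every alternative in which they were tested (301 of them where dim genes were left out). Without single arrays this was nearly fixed in advance, because the HFD and chow arrays did not overlap in nearly all of these genes. The count was 338 with each array centred on its median (60.7% of them higher, against 45.1% as reported), 453 without dim genes (29.8% higher), 391 to 464 under the other alternatives except the acinar covariate (1175), and 123 to 520 without single arrays. Fitting only the arrays compared gave 464 genes, 257 of them among the 435. With the replicate block 434 genes passed, 380 of them among the 435; numbers did not pair the arrays, and no HFD array correlated best with its own number. The difference from TRAF3 knockouts (606) was 334 with every probe set and 140 to 1582 without single arrays, and the difference from controls was 0 in all. In controls, the 196 became 306 without dim genes, 78 with only the arrays compared, 48 with the sex and 448 with the acinar covariate, and 19 to 603 without single arrays. In TRAF3 knockouts, the 1923 became 608 with only the arrays compared and 618 to 2466 without single arrays. The causes were not tested. Of 138 named genes, 86 passed, and 36 of these did so under every alternative run. No named gene changed sign while called. Low signal limits the size of fold changes that end below the array medians.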
